A study of Homo sapiens with 2 samples.

Results

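The 33 genes described here comprise 25 human selenoprotein genes and 8 genes of selenocysteine synthesis, selenocysteine insertion and selenium supply. They were chosen by gene symbol from the 61541 genes of the RNA-seq table, and all 33 had a row. Of these, 30 had at least 10 reads over both libraries and were tested, against 17921 genes of the whole table. GPX6, DIO2 and SELENOV were at 0 reads, which allows for at most 3 in each library, so no difference was detectable for them at this depth.

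The data are RNA-seq of Huh7, a human hepatocellular carcinoma cell line, after knockdown of BRF2. Huh7-NC cells received a negative control siRNA and Huh7-si cells an siRNA against BRF2, with no other agent or allele named for either. The siRNA used for the sequenced library, the time of harvest and the selenium content of the medium are not given in the sources used here. Each condition is 1 library of bulk RNA from this single line, so no difference has a replicate check, and condition and library cannot be told apart.

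Selenoproteins carry selenocysteine (Sec), which is inserted at a UGA codon that otherwise stops translation. A stem-loop in the 3′ UTR, the SECIS element, together with SECISBP2, the elongation factor EEFSEC and the selenocysteine tRNA, recodes this UGA. The gene of this tRNA has a type 3 promoter and is transcribed by RNA polymerase III with BRF2. When UGA is not recoded, a selenoprotein mRNA can be read as carrying a premature stop and enter nonsense-mediated decay. In the liver, selenoproteins reduce peroxides and thioredoxin, and hepatocytes secrete SELENOP, which carries selenium in plasma. The selenocysteine tRNA itself was not analysed here, since no row of the table named it.

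The sequences below show the UGA codon (TGA in the DNA, in capitals) with up to 12 coding bases on each side, as annotated in GENCODE release 29 on GRCh38. They were chosen because the position of this codon differs between the families whose values follow. The 4 glutathione peroxidase genes with a UGA codon and with reads carry it early in the coding sequence.
GPX1: gtggcgtccctcTGAggcaccacggtc
GPX2: gtggcttcgctcTGAggcacaaccacc
GPX3: gtggccagctacTGAggcctgacgggc
GPX4: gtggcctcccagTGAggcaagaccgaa
The GPX1 codon lies at chr3:49358132-49358134 on the minus strand, codon 49 of 203 in exon 1 of 2. That of GPX2 lies at chr14:64942607-64942609 on the minus strand, codon 40 of 190 in exon 1 of 2. That of GPX3 lies at chr5:151025469-151025471 on the plus strand, codon 73 of 226 in exon 2 of 5. That of GPX4 lies at chr19:1105403-1105405 on the plus strand, codon 73 of 197 in exon 3 of 7. Over all 5 glutathione peroxidase genes with a UGA codon, GPX6 included, 12 of the 27 bases were identical, and GPX1 shared 21 with GPX2, 18 with GPX3 and 19 with GPX4.

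In the thioredoxin reductases the UGA is the last codon but one, and the windows end with the regular stop codon.
TXNRD1: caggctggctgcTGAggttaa
TXNRD2: gtgacaggctgcTGAgggtaa
TXNRD3: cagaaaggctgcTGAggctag
These codons lie at chr12:104348413-104348415 (plus strand, codon 498 of 499), chr22:19877111-19877113 (minus strand, codon 523 of 524) and chr3:126607911-126607913 (minus strand, codon 642 of 643). The codon of TXNRD1 is in exon 15 of 15 and that of TXNRD3 in exon 16 of 16, both last exons, whereas that of TXNRD2 is in exon 17 of 18. The remaining windows belong to MSRB1, which had the lowest log2 fold change among selenoproteins with over 100 reads, to DIO3, which had the highest of all those tested on 21 and 41 reads, and to the plasma carrier.
MSRB1: cagtcccgattcTGAatattcagcagc
DIO3: ggcagctgcaccTGAccaccgttcatg
SELENOP: cttcaagccagcTGAtacctgtgcata
The MSRB1 codon lies at chr16:1940812-1940814 on the minus strand, codon 95 of 116 in exon 3 of 4. That of DIO3 lies at chr14:101562004-101562006 on the plus strand, codon 170 of 304 of a gene with a single exon. SELENOP has 10 UGA codons for selenocysteine, and the one shown is the first, at chr5:42808177-42808179 on the minus strand, codon 59 of 381.

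The libraries held 22852648 reads on genes in Huh7-NC and 22089016 in Huh7-si. BRF2 itself had 1281 and 364 reads, or 56.0 and 16.5 CPM (a gene's reads scaled to the library's total on genes), whose ratio was -1.77 on the log2 scale (95% interval -1.94 to -1.60). All 9 hepatocyte and hepatoma markers had reads, with a summed TPM (level scaled for gene length and library) of 14514 in Huh7-NC against 15430 in Huh7-si. Single markers moved apart, with APOA1 at 1195 and 755 TPM (-0.83 on the log2 scale of CPM) and APOB at 76.6 and 179 TPM (1.04). The markers of leukocytes summed to 8.35 and 10.7 TPM, those of endothelium to 0.930 and 1.60 TPM and those of stroma to 1.11 and 4.41 TPM. Of the leukocyte markers, PTPRC had 5 and 1 reads and CD68 235 and 244. Of the endothelium markers, VWF had 1 and 3 reads and PECAM1 60 and 63. Of the stroma markers, ACTA2 had 2 and 7 reads and COL1A1 76 and 229. Over all genes tested, 64.8% were higher in Huh7-si and 35.2% lower, with a median log2FC (the log2 of the fold change, CPM in Huh7-si over CPM in Huh7-NC) of 0.21.

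Most selenoprotein mRNAs were lower in Huh7-si than in Huh7-NC, most of them by less than 1.5-fold, while most genes tested were higher when scaled to total reads. With TMM scaling of the counts, the median log2FC was -0.018 over all genes tested and -0.50 over the selenoprotein genes. Of the 22 selenoprotein genes tested, 17 had a lower CPM in Huh7-si and 5 a higher one, with a median log2FC of -0.27. Their summed reads were 70176 of the library in Huh7-NC (0.307%, 95% interval 0.305% to 0.309%) and 54314 in Huh7-si (0.246%, 0.244% to 0.248%), a log2FC of -0.32 (-0.34 to -0.30). The summed TPM was 3690 in Huh7-NC against 3161 in Huh7-si. The 8 machinery genes had 5 lower and 3 higher, with a median log2FC of -0.08, which became 0.24 on the TPM values. Intervals here are exact Clopper-Pearson intervals. They cover counting error only and compare these libraries, not the conditions. In bulk RNA, fewer cells of a type and less RNA per cell cannot be told apart.

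A gene was called when its fold was at least 2 and its interval left out no difference. At this threshold, 1 of the 30 members was called higher (DIO3), where 12.5% of all genes tested were, and 1 was called lower (DIO1), where 1.16% were. With a fold of at least 1.5, 2 were called higher (DIO3 and LRP8), beside 23.0% of all genes, and 3 lower (DIO1, GPX2 and MSRB1), beside 3.84% of all genes. For 25 members the fold was under 1.5 or was not set apart from no difference. The interval lay wholly below no difference for 19 members, wholly above it for 6, and spanned it for TXNRD1, TXNRD3, SELENOS, SELENOO and TRNAU1AP. Of the 17921 genes tested, it lay wholly below for 3574, wholly above for 7389, and spanned no difference for 6958.

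**Figure D1:**
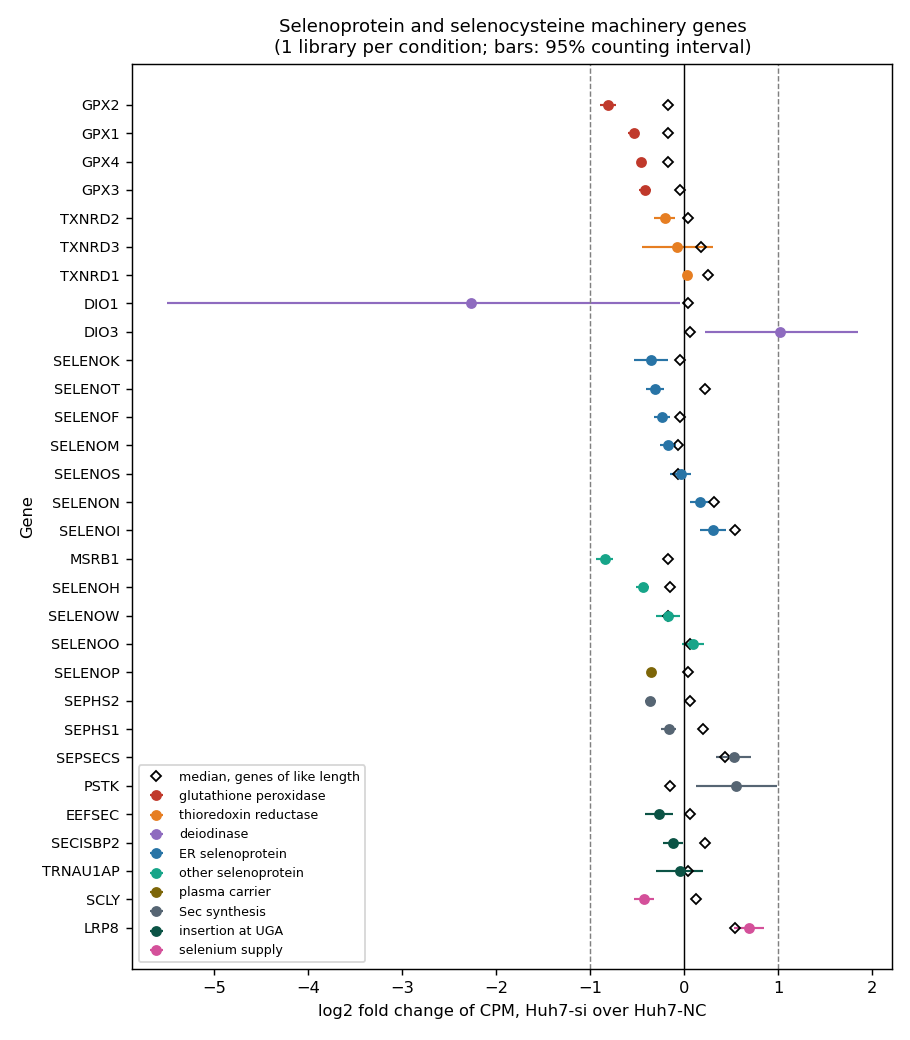
Log2 fold change (Huh7-si over Huh7-NC, horizontal axis) of the 30 members with at least 10 reads, grouped by role, with points at the ratio of CPM and bars for the 95% counting interval. All 4 glutathione peroxidases shown lie left of 0, and DIO1 and DIO3, with few reads, have the widest bars.

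The selenocysteine-containing glutathione peroxidases, which reduce peroxides with glutathione, were lower in Huh7-si for the 4 genes tested, with a median log2FC of -0.50. Each was lower under all 8 settings of scaling, level and gene length. Of these settings, only TPM and like length could turn a gene that was already lower. GPX1, the cytosolic enzyme, had 6300 reads in Huh7-NC against 4192 in Huh7-si, or 493 and 381 TPM, and its log2FC was -0.54 (-0.60 to -0.48). GPX4, which reduces lipid hydroperoxides in membranes and protects cells from ferroptosis, had 10929 and 7703 reads, or 1059 and 872 TPM, with a log2FC of -0.46 (-0.50 to -0.41). GPX2, the epithelial enzyme known from the gut, showed the largest difference of the 4. It had 3246 and 1789 reads, or 249 and 161 TPM, a ratio of 0.570 and a log2FC of -0.81 (-0.89 to -0.73). GPX3, the secreted plasma enzyme, had 4553 and 3301 reads, or 173 and 150 TPM, with a log2FC of -0.41 (-0.48 to -0.35). The 4 genes together took 0.110% of the reads in Huh7-NC against 0.0769% in Huh7-si, a log2FC of -0.51 (-0.54 to -0.48).

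The thioredoxin reductases, which reduce thioredoxin with NADPH, had values nearer to no difference. TXNRD1, the cytosolic enzyme, had 8517 reads in Huh7-NC against 8377 in Huh7-si, with a log2FC of 0.03 (-0.02 to 0.07). On the TPM values it was 133 in Huh7-NC against 167 in Huh7-si, a log2FC of 0.33, and with TMM scaling of the counts its log2FC was -0.20, so no direction held across scalings. TXNRD2, the mitochondrial enzyme, was lower on both scales, with 1505 and 1259 reads, 48.8 and 45.6 TPM, and a log2FC of -0.21 (-0.32 to -0.10). TXNRD3, known from the testis, had 124 and 114 reads and a log2FC of -0.07 (-0.45 to 0.31), a difference not detectable at this depth.

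The deiodinases, which activate or inactivate thyroid hormones, were at the bottom of the range of levels. DIO1, the enzyme of the adult liver that forms active hormone, had 10 reads in Huh7-NC against 2 in Huh7-si, a ratio of 0.207 whose log2 interval ran from -5.50 to -0.04. DIO3, which inactivates thyroid hormone and is known from fetal tissues and tumors, had 21 and 41 reads, or 0.580 and 1.32 TPM, with a log2FC of 1.01 (0.22 to 1.85). Both calls rest on few reads. DIO3 just passed the 2-fold threshold with a ratio of 2.02, which it did not with TMM scaling, and DIO1 had under 10 reads in Huh7-si.

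Of the 7 selenoproteins of the endoplasmic reticulum (ER), 5 were lower in Huh7-si and 2 higher, with a median log2FC of -0.17, and none was called at 1.5-fold. SELENOK, a partner of the ER-associated degradation machinery, had 597 and 451 reads and a log2FC of -0.36 (-0.54 to -0.18). SELENOF, which binds the glycoprotein folding sensor UGGT, had 2576 and 2115 reads and a log2FC of -0.24 (-0.32 to -0.15). SELENOM, a thioredoxin-like protein, had 2530 and 2169 reads and a log2FC of -0.17 (-0.26 to -0.09). All 3 were lower in Huh7-si beyond counting error on CPM. On TPM the counting intervals of the 2 libraries overlapped for each, with SELENOK at 28.78 and 24.35 TPM, SELENOF at 113.75 and 106.92 and SELENOM at 293 and 288.75. SELENOS, which joins VCP to the ER membrane, had 1304 and 1226 reads, with an interval that spanned no difference (-0.15 to 0.07). SELENOT, another thioredoxin-like protein, went opposite ways on the 2 scales, with 1891 and 1472 reads (log2FC -0.31, -0.41 to -0.21) but 69.6 and 75.4 TPM (0.12). SELENOI, an ethanolamine phosphotransferase of phospholipid synthesis, had 804 and 962 reads and a log2FC of 0.31 (0.17 to 0.44). SELENON, which acts in calcium handling of muscle, had 1388 and 1508 reads and a log2FC of 0.17 (0.06 to 0.27). SELENOI and SELENON were higher in Huh7-si, though less so than genes of like length, with differences from these of -0.23 and -0.14, and SELENON turned lower under 3 other scalings.

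Among the remaining selenoproteins, MSRB1, which repairs oxidized methionine, had the lowest log2FC of any member with over 100 reads. It had 3011 reads in Huh7-NC against 1618 in Huh7-si, or 151 and 96.3 TPM, a ratio of 0.556 and a log2FC of -0.85 (-0.94 to -0.76). SELENOH, a nuclear redox protein, had 3872 and 2751 reads and a log2FC of -0.44 (-0.52 to -0.37). SELENOW, a small thioredoxin-like protein, had 1073 and 922 reads and a log2FC of -0.17 (-0.30 to -0.04), and SELENOO, a mitochondrial AMPylating enzyme, had 1090 and 1124 reads and a log2FC of 0.09 (-0.03 to 0.21). The SELENOO interval spanned no difference. SELENOP, the plasma carrier, was among the most abundant members, with 9329 and 7078 reads, 275 and 241 TPM, and a log2FC of -0.35 (-0.39 to -0.30). The 4 selenoproteins whose mRNAs are known to be sensitive to selenium supply (GPX1, SELENOW, SELENOH and MSRB1) had a median log2FC of -0.49, and 4 known to be more resistant (TXNRD1, TXNRD2, GPX4 and SELENOF) of -0.22. The 2 groups overlapped, since GPX4, at -0.46, was lower than SELENOW, at -0.17. The first group is shorter (median 873 against 1742 bases), and against genes of like length the medians were -0.33 and -0.24.

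The genes that make selenocysteine on its tRNA went in both directions. SEPHS2, which makes the selenium donor and is itself a selenoprotein, had 5506 reads in Huh7-NC against 4140 in Huh7-si and a log2FC of -0.36 (-0.42 to -0.30). SEPHS1, its homolog without selenocysteine, had 2840 and 2446 reads and a log2FC of -0.17 (-0.25 to -0.09), but 65.9 and 76.8 TPM. The kinase and the synthase of the pathway were higher in Huh7-si. PSTK, which phosphorylates the serine on the selenocysteine tRNA, had 79 and 112 reads, or 4.94 and 7.80 TPM, with a log2FC of 0.55 (0.12 to 0.99). SEPSECS, which converts that phosphoserine into selenocysteine, had 419 and 582 reads, or 4.31 and 6.49 TPM, with a log2FC of 0.52 (0.34 to 0.71). Neither was called at 1.5-fold on CPM, but both passed that fold on TPM (0.66 and 0.59 on the log2 scale). Against genes of like length PSTK was at 0.70 and SEPSECS at 0.09.

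The 3 genes that act in the insertion of selenocysteine at UGA were lower in CPM. EEFSEC, the elongation factor, had 850 and 682 reads and a log2FC of -0.27 (-0.42 to -0.12). SECISBP2, the SECIS-binding protein, had 1568 and 1397 reads and a log2FC of -0.12 (-0.22 to -0.01), with 26.6 and 26.5 TPM. TRNAU1AP, which binds the selenocysteine tRNA, had 272 and 254 reads, and its interval spanned no difference (-0.30 to 0.20). The median of these 3 was -0.12. Of the genes of selenium supply, SCLY, the lyase that frees selenium from selenocysteine, had 1773 and 1273 reads and a log2FC of -0.43 (-0.53 to -0.32), whereas LRP8, a receptor that takes up SELENOP, had 521 and 810 reads, a ratio of 1.61 and a log2FC of 0.68 (0.53 to 0.85). LRP8 was the one machinery gene called at 1.5-fold on CPM. This call was lost with TMM scaling (0.46), the median of ratios (0.48) and the upper quartile (0.50), and against genes of like length LRP8 was at 0.15.

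Compared on the length-scaled TPM values, the members spanned more than 3 orders of magnitude. GPX4 was the highest in both libraries, above 99.2% of the genes tested in Huh7-NC and 99.1% in Huh7-si, and made up 28.7% and 27.6% of the summed selenoprotein TPM. In Huh7-NC it was followed by GPX1, SELENOM, SELENOP, GPX2, SELENOH, GPX3, MSRB1, SEPHS2, TXNRD1 and SELENOF, each apart from the next by its counting interval. Lower in the order, 9 of the 29 neighbouring pairs had overlapping intervals, among them SELENOF and SELENOW, SELENOT and SELENOS, SELENOS and SEPHS1, SCLY and TXNRD2, and DIO3 and DIO1. In Huh7-si, 12 pairs overlapped. The first 4 places were held by the same genes in the same order in Huh7-si, TXNRD1 moved from place 10 to 6, GPX2 from 5 to 7 and MSRB1 from 8 to 11. In Huh7-si the intervals of TXNRD1, GPX2 and GPX3 overlapped from one to the next.

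**Figure D2:**
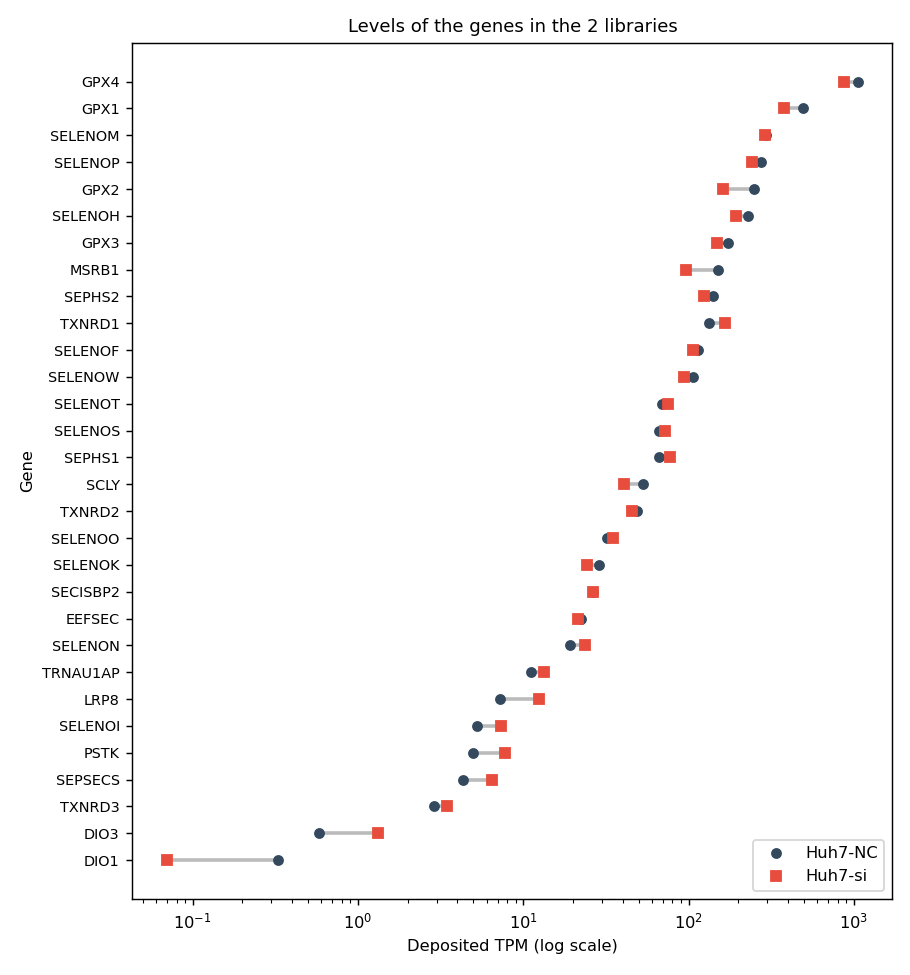
Level of each member in TPM (log axis) in Huh7-NC and Huh7-si, in the order of Huh7-NC, with 1 point per library and no replicates. GPX4 stands highest in both libraries (1059 and 872 TPM), and the levels of the deiodinases are the lowest.

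The selenoprotein genes tested had a median length of 1728 bases in the table, beside 2744 for all genes, and in these libraries log2FC went with gene length over the whole table. Across the genes tested that had reads in both libraries, Spearman's correlation of length and log2FC was 0.31 (n = 17782 genes). It was 0.49 over the 30 members. Both values are descriptions across genes that share both libraries. Of the 16 members under 2000 bases, 15 were lower in Huh7-si and PSTK was the exception. The 14 members of 2000 bases or more had 7 lower and 7 higher. Among all genes, 52.9% of those under 2000 bases and 26.4% of those at or over it were lower. The median log2FC of the short members was -0.35, beside -0.05 for all short genes, and that of the long members was -0.02, beside 0.31 for all long genes. Taken against the median of genes of similar length (in 20 bins), 23 of the 30 members were below and 7 above, with a median difference of -0.26. This difference was -0.36 for GPX1, -0.63 for GPX2, -0.37 for GPX3, -0.28 for GPX4, -0.67 for MSRB1 and -0.38 for SELENOP, and 0.0079 for SELENOW, whose value was that of genes of its length. The part of length in the members' values was not tested further.

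**Figure D3:**
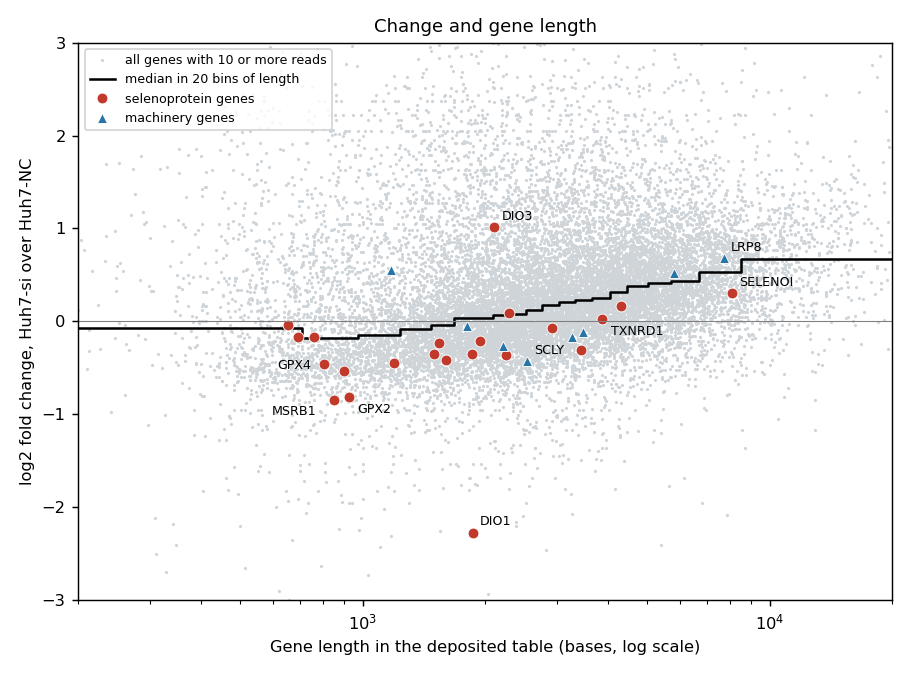
Log2 fold change (Huh7-si over Huh7-NC) against gene length in bases (log axis) for genes with at least 10 reads (grey). The line is the median in 20 bins of length, with selenoprotein genes in red and machinery genes in blue. Only genes with reads in both libraries are drawn, and none past a log2FC of 3 or the ends of the length axis. Most members lie below the line, which climbs with length.

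The position of the UGA codon was then compared. A stop codon more than about 50 bases before the last exon junction is the textbook signal for nonsense-mediated decay. In 13 of the 22 selenoprotein genes tested the first UGA lay more than 50 bases before that junction, and 12 of these were lower in Huh7-si and 1 (SELENON) was higher, with a median log2FC of -0.35. In the other 9 it lay nearer to the junction, after it, or in a gene with a single exon (DIO3 and SEPHS2), and 5 were lower and 4 higher, with a median of -0.04. The sets overlapped, since MSRB1 (34 bases before the junction) was at -0.85 in the second and SELENON (1221 bases before it) at 0.17 in the first. Gene length moved with this split, with a median of 1542 bases in the first and 2244 in the second. Against genes of like length, the medians were -0.29 and -0.23. The 6 genes with UGA within 4 codons of the end of the coding sequence (TXNRD1, TXNRD2, TXNRD3, SELENOK, SELENOS and SELENOO) had a median log2FC of -0.06, and the 16 others of -0.36, with medians against like length of -0.24 and -0.33. No test was made of these splits.

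**Figure D4:**
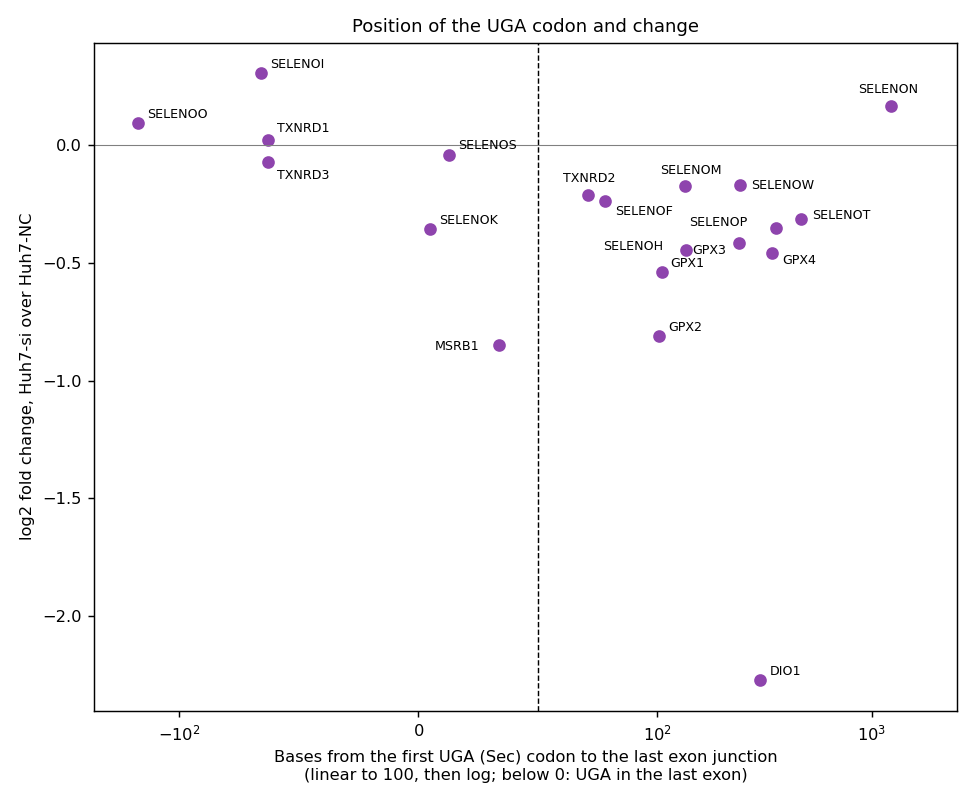
Log2 fold change (Huh7-si over Huh7-NC) of the selenoprotein genes against the distance in bases from the first UGA codon to the last exon junction (linear near 0, log beyond 100), with the dashed line at 50 bases. Right of the line 12 of 13 genes lie below 0; the genes with a single exon, DIO3 and SEPHS2, have no junction and are not drawn.

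Other genes of the pathway were examined as lists. The thioredoxin and glutathione partners had 15 of 18 genes lower in Huh7-si, with a median log2FC of -0.42, and 7 were called lower at 1.5-fold, beside 3.84% of all genes, and 1 higher, beside 23.0%. The lowest were GLRX (glutaredoxin, -0.82), PRDX1 (a peroxiredoxin fed by thioredoxin, -0.77) and TXN (thioredoxin, the substrate of TXNRD1, -0.68), with TXN at 5638 and 3391 reads. TXNIP, which binds and inhibits thioredoxin, was the one called higher, with 380 and 906 reads (1.30), and GSR, glutathione reductase, was at -0.12. Against genes of like length the median of this list was -0.48. TXN was then at -0.51, under 1.5-fold, while GLRX (-0.75), PRDX1 (-0.62) and TXNIP (1.13) stayed past it. Of the 5 cysteine homologs tested, which have cysteine in place of selenocysteine, only MSRB3 was called higher at 1.5-fold, with 219 and 339 reads (0.68). None was called lower, beside 23.0% of all genes called higher and 3.84% called lower. GPX8 was at 0.02, and the list median was -0.20. MSRB3 was at 0.37 against genes of like length.

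Of 11 further factors of the selenocysteine tRNA and of SECIS elements, 2 were called higher at 1.5-fold, beside 23.0% of all genes. There was 1 called lower, beside 3.84%. The list median was 0.04, and -0.32 against genes of like length. SECISBP2L, the paralog of SECISBP2, had 369 and 631 reads (0.82), and LRP2, a receptor for SELENOP in the kidney, had 94 and 212 (1.22). Against genes of like length these long genes were at 0.29 and 0.55, under 1.5-fold. Nucleolin (NCL) was lower, with 33161 and 20339 reads (-0.66). SARS1, which charges the selenocysteine tRNA with serine, was at -0.29, and TRIT1, which modifies that tRNA, was at 0.10. All 10 nonsense-mediated decay factors were higher, with a median of 0.26, close to the 0.21 of all genes. SMG1, the kinase of the pathway, was the 1 called higher at 1.5-fold, beside 23.0% of all genes, with 1046 and 2250 reads (1.15). Against genes of like length the median of the 10 factors was -0.09 and SMG1 was at 0.48. Of 8 partners in ER-associated degradation and glycoprotein folding, UGGT1 (0.89), SEL1L (0.87) and UGGT2 (0.66) were called higher at 1.5-fold and none lower, beside 23.0% and 3.84% of all genes, with a median of 0.38. Against genes of like length the 3 were at 0.22, 0.34 and 0.28, under 1.5-fold, and the list median was 0.15.

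**Figure D5:**
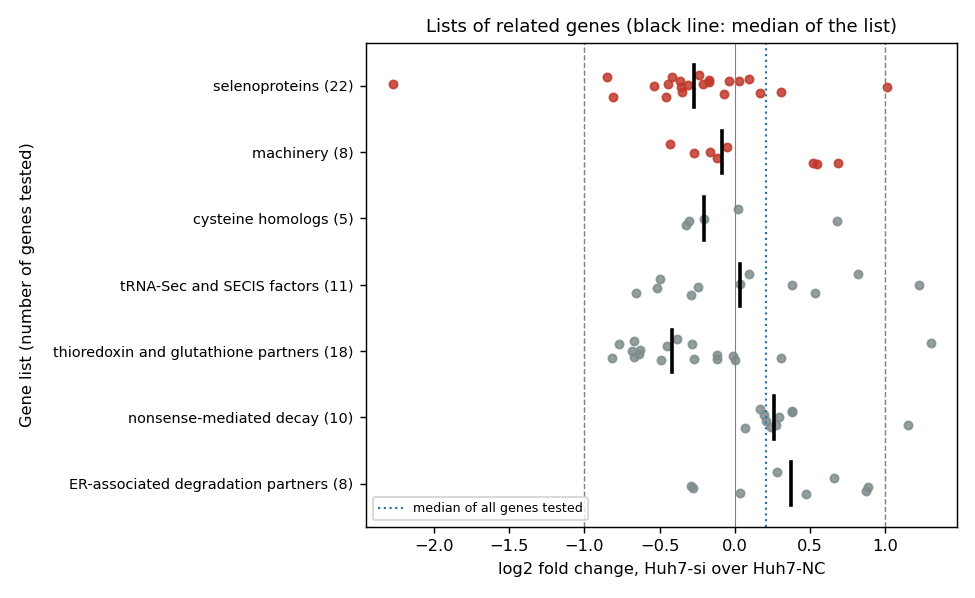
Log2 fold change (Huh7-si over Huh7-NC) of the genes of each list with at least 10 reads, with 1 point per gene, the median of each list as a black line, that of all genes tested as a dotted line and dashed lines at a fold of 2. The medians of the selenoproteins (-0.27) and of the thioredoxin and glutathione partners (-0.42) lie left of the median of all genes (0.21).

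Some of the members' reads could be shared with other genes. On GRCh38, 13 of the 33 members overlap another gene, 10 of them one on the opposite strand, and whether reads were counted by strand is not given in the sources used here. SELENOT overlaps SERP1 (3012 and 2468 reads) and EEFSEC overlaps RUVBL1 (3817 and 2922 reads), both lower in Huh7-si like the member. PSTK, with 79 and 112 reads, overlaps IKZF5 (291 and 416 reads) and C10orf88 (170 and 196 reads), which were higher like PSTK. GPX2 overlaps CHURC1 (583 and 522 reads). SCLY overlaps the readthrough gene UBE2F-SCLY (407 and 362 reads), and the processed pseudogene GPX1P1 had 247 and 152 reads beside the 6300 and 4192 of GPX1. The values of these members are uncertain to that extent.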

How the data were processed

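RNA was extracted from Huh7-NC and Huh7-si cells and sequenced with Illumina libraries (1 library each, with 22852648 and 22089016 reads on genes). The authors deposited 1 table of 61541 genes with an estimated count (not scaled to library size, partly fractional) and a TPM value per library, the gene length, and their own fold, log2 and p-value columns, which were not used. The submitters' processing notes name TopHat2 2.0.12, Bowtie2 2.0.6 and GRCh37. The counting tool, annotation and strandedness are not given in the sources used here.

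CPM was computed from the estimated counts and compared as a ratio. Counts were rounded for the 95% Clopper-Pearson intervals. Genes with at least 10 reads over both libraries were tested. A count of 0 allows up to 3 reads, or 0.131 CPM (Huh7-NC) and 0.136 CPM (Huh7-si). UGA codons, exons and overlaps came from GENCODE release 29 (GRCh38), which holds 94.8% of the identifiers and all 33 members. For SELENON and SELENOP, with several UGA codons, the first was used for its position. All members are named; of the other lists, those called at 1.5-fold (up to 3 each way), TXN, GSR, SARS1, SECISBP2L, TRIT1 and GPX8. The members and lists were chosen with earlier results of these data known. Genes of a list are not replicates. Alternatives were other scalings (TMM in edgeR, the DESeq2 median of ratios, upper quartile, total reads less the 100 top genes), TPM, like-length genes, filters and pseudocounts. The intervals were tested on simulated counts that varied by counting error only. That test could not show how they hold with a spread between libraries. Python 3.11.15, NumPy 2.4.6, pandas 2.3.3, SciPy 1.17.1, matplotlib 3.10.9, R 4.3.3, edgeR 4.0.16 and DESeq2 1.42.0 were used. 1 overlapping gene is not reported here.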

Additional observations from a re-analysis of the deposited data

How the results depend on the processing

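Scaling by TMM, the median of ratios or the upper quartile moved every log2 fold change by -0.22, -0.21 or -0.19, and TPM moved the median of all genes by 0.18. The median of all genes tested was 0.21 with total reads and -0.018, 9.3e-05 and 0.021 under these 3 scalings. The median log2 fold change of the selenoprotein genes was -0.50, -0.48 and -0.46 under these scalings and -0.14 with TPM. That of the machinery genes was -0.31, -0.29 and -0.27, and turned to 0.24 with TPM. Of 22 selenoprotein genes, 17 were lower with total reads, 20 with TMM and 14 with TPM. At 2-fold, 0 members were called higher under TMM, the median of ratios, the upper quartile, total reads less the 100 top genes, like-length genes and either pseudocount (0.5 reads or 1 CPM). Those called lower at 2-fold were 3 with TMM, 3 with the median of ratios, 2 with the upper quartile and 0 with a pseudocount of 1 CPM or with 10 reads in each library. At 1.5-fold, those called higher were 0 with TMM, 1 with the median of ratios, 1 with the upper quartile, 4 with TPM and 1 with a pseudocount of 1 CPM, and those called lower were 9, 8 and 8 under the 3 scalings. Over all genes, TMM called 1520 higher and 391 lower at 2-fold, against 2248 and 208 with total reads. Genes of the whole table called lower at 1.5-fold rose from 689 with total reads to 2015, 1891 and 1754 under the 3 scalings. Those called higher at 1.5-fold fell from 4125 to 2641, 2756 and 2851. The lower calls among members therefore rose together with those of the whole table. Among members whose interval left out no difference, the direction turned for SELENON (-0.056 with TMM, -0.038 with the median of ratios, -0.018 with the upper quartile, -0.14 against like length), SELENOI (-0.23) and SELENOW (0.0079) against like length, and SELENOT (0.12) and SEPHS1 (0.22) with TPM. The sign also varied for TXNRD1, TXNRD3, SELENOS, SELENOO and TRNAU1AP, whose intervals spanned no difference. Of 30 members, 16 were lower and 4 higher (DIO3, PSTK, SEPSECS and LRP8) under all 8 settings. A gene lower with total reads could turn only with TPM or against like length, since the other scalings shifted all genes down. The pseudocount of 1 CPM keeps the sign. With 1 library per condition no spread between replicates can be estimated, and no paired analysis was possible. The cause of the shifts between scalings was not tested.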

Other observations

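The deposited TPM and count columns did not move together. Over the 30 members tested, the log2 fold change of TPM less that of CPM had a median of 0.17 and ranged from -0.02 (SELENOW) to 0.43 (SELENOT), with SEPHS1 at 0.39 and TXNRD3 at 0.34. Which transcripts the TPM values were scaled by is not given in the sources used here. Among the stroma markers, COL1A1 had 76 and 229 reads and was called higher at 2-fold (1.64), where 12.5% of all genes tested were.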
